A study of Mus musculus with 6 samples.

Results

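The genes described here are 39 transcription factor and associated noncoding genes of cortical and neural development, together with the genes on the opposite strand whose exons overlap theirs. The 39 genes were taken from a named list, matched by symbol to the identifiers of the deposited count table. Another 23 genes were added because they shared at least 1 exonic base with a listed gene on the opposite strand. These 62 genes were part of a table of 57010. The study compared 2 wild-type (WT) mouse groups of 3 libraries each. The ESC group held embryonic stem cells in standard culture, labelled as the cell line WT ESC. The DIV7 group held primary neurons from the cerebral cortex of embryos at embryonic day 16.5, maintained for 7 days in vitro. None was perturbed, per the labels, and the samples served as reference states for a study of the gene Rai1 in neural development. The titles call the libraries replicates but do not say whether they came from separate cultures or litters, so p-values measure the spread between these samples, which may be technical. The library names of neuron replicates 2 and 3 hold the word empty, which the labels do not explain. The labelled batch was the same split as the cell type, so a batch effect and a cell type effect cannot be told apart.

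Cortical projection neurons arise through a relay of transcription factors. Regional factors such as Pax6, Emx2, Lhx2 and Nr2f1 pattern the progenitors of the forebrain, Notch signalling through Hes genes keeps them dividing, and proneural basic helix-loop-helix factors such as Neurog2 and Neurod1 drive them to differentiate. Postmitotic neurons then take layer identities under factors such as Tbr1, Bcl11b, Cux2 and Pou3f2, while Sox4, Sox11, Myt1l and Mef2c act in differentiation and maturation. Many of these genes lie beside or across noncoding RNAs transcribed from the other strand, for example Emx2os at Emx2 and Pantr1 at Pou3f3.

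Sequencing depth was low, at 513425 to 1775055 counts per library. On the CPM scale (counts per 1000000, adjusted by trimmed-mean factors), 3 counts equalled 2.26 to 2.90 in an ESC library and 3.92 to 4.81 in a neuron library. A count of 0 allows up to these levels, and the limits cover counting error only. Genes whose exons overlap a gene on the other strand made up 16.8% of the table and held 88.5% to 91.9% of the counts of a library. A gene wholly within the exon of Pou3f2, ENSMUSG00000120708.1, held 183, 122 and 127 neuron counts against 8, 5 and 1 on Pou3f2. The 2 strands were thus not counted alike there. The strand setting is not given in the sources used here, so which of 2 overlapping genes a read came from is not known. Had strand been read in the opposite sense, a gene without a partner, such as Pax6, would hold no reads of its own strand. Reads of paired genes outside the shared bases would go uncounted on either row. Counts listed on a partner over shared bases would belong to the gene it overlaps, and the other way round. As an example, the pluripotency gene Pou5f1 was assigned 51, 29 and 43 counts in ESC libraries, where its locus with overlapping opposite-strand genes held 18610, 13996 and 15692. Each value below is the count as assigned in the table, and every statement that a partner held more than a listed gene may be turned around. Of 8 pluripotency markers, 5 (Pou5f1, Nanog, Zfp42, Esrrb and Dppa5a) were at 0 in every neuron library. Summed over the rows of these 8 genes, the level was 156 to 225 CPM in ESC and 2.61 to 4.81 CPM in neuron libraries. The 8 neuronal markers summed to 169 to 226 CPM in ESC and 1062 to 1302 CPM in neurons, but Nefm made up most of both sums, with 164, 168 and 139 counts against 771, 837 and 699. Rbfox3 and Snap25 were at 0 in ESC and had at most 5 counts per neuron library. Tubb3 had 10, 4 and 8 counts in ESC against 4, 2 and 1 in neurons. Stmn2 had 27, 25 and 16 against 8, 1 and 3, and Syn1 and Nefl also had fewer. The neuron libraries held 513425 to 624792 counts in all and the ESC libraries 1368303 to 1775055. Fewer counts on a row therefore need not be a lower level. On the CPM scale Stmn2 was still lower in every neuron library than in every ESC library. Tubb3, Syn1 and Nefl overlapped between the groups on that scale. On these rows the label rests on few markers. The neuron cultures also held counts on 5 of 6 astrocyte markers (41.7 to 67.1 CPM in all, against 2.72 to 5.27 in ESC) and 5 of 6 interneuron markers (490.3 to 643.4 against 1.94 to 5.27 CPM). Dlx1, with 471, 319 and 303 neuron counts, made up nearly all of the interneuron sum, while Gad1, Gad2, Slc32a1 and Dlx2 had 1 to 12 counts per neuron library and Lhx6 had 0. With the counts of overlapping opposite-strand genes added, the astrocyte, interneuron and oligodendrocyte lists reached 1358 to 1885, 1670 to 2099 and 405 to 523 CPM in neurons, against 166 to 203, 242 to 266 and 28.7 to 30.5 in ESC. The 6 microglial markers summed to 200.9 to 266 CPM in ESC and 130 to 145 in neurons, mostly on Csf1r (97, 89 and 75 neuron counts), with C1qa and Tmem119 at 0 in every library. The 5 cycling progenitor markers stood at 42.6 to 52.7 CPM in ESC and 5.22 to 13.4 in neurons. Vascular and fibroblast lists stayed at or below 9.05 CPM in every library. In bulk RNA, fewer cells of a type and less RNA per cell cannot be told apart, and the part that these other cell types had in the values below was not tested.

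In the neuron libraries the listed genes were assigned more counts than in the stem cells, yet few of them reached high levels. Together the 39 genes held 3.29 to 4.94 counts per 100000 in ESC libraries and 57.9 to 75.5 in neuron libraries. Their 23 opposite-strand partners held 12.7 to 14.0 and 271.5 to 288.3 per 100000. Of the listed genes, 24 never exceeded 10 counts in any library, and only Pax6 and Sox4 reached 50. Neurog1, a proneural gene of early neurogenesis, and St18, a zinc finger gene related to Myt1l, were at 0 in all 6 libraries. Mean CPM was higher in neurons for 32 of the 39 genes and higher in ESC for 5, where 50.6% of all genes with a count had the higher mean in neurons. In 27 genes every neuron library lay above every ESC library, and in 3 (Otx2, Hes1 and Eomes) every ESC library lay above every neuron library. Over the 28820 genes of the table with a count, the corresponding shares were 24.2% and 22.8%.

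**Figure D1:**
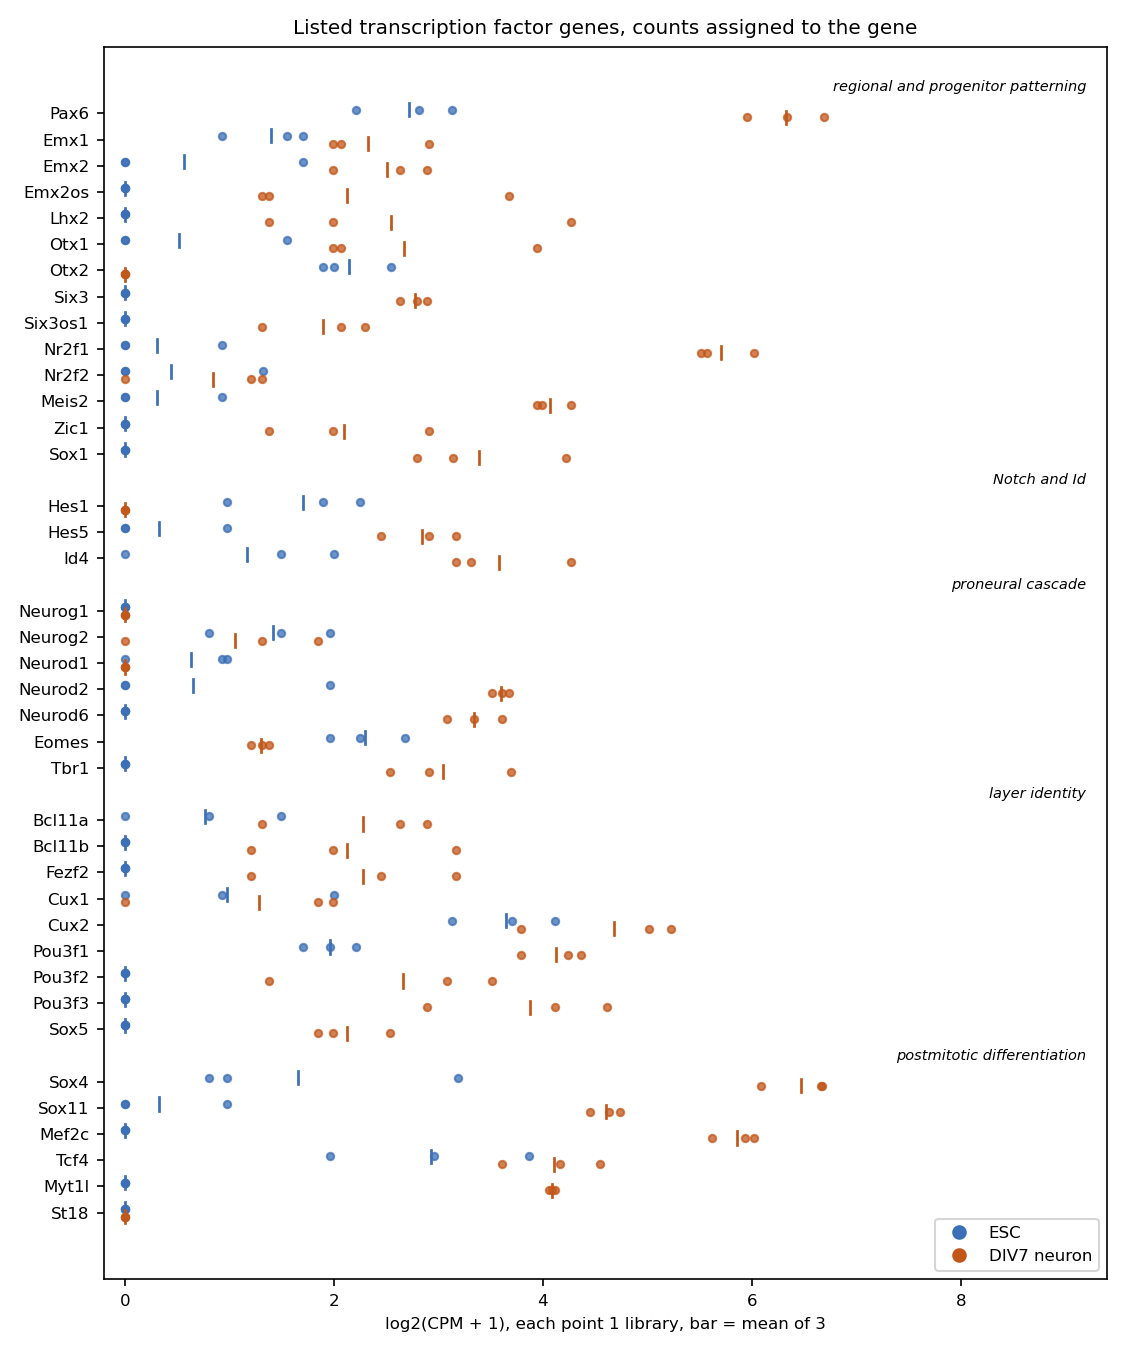
Level of each listed gene in each library, as log2(CPM + 1) on the horizontal axis, grouped by role. Points are libraries and bars are the means of 3 log values, in blue for ESC and orange for DIV7 neurons. Pax6, Sox4, Nr2f1 and Mef2c reach the highest neuron levels, and Otx2, Hes1 and Eomes are the genes whose ESC points all lie to the right.

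Differences were tested with edgeR's quasi-likelihood test over 7150 genes that passed a filter on low counts. Only 11 of the 39 listed genes passed that filter, and all 11 were called higher in neurons at a Benjamini-Hochberg adjusted p under 0.05. The background was 85.6% of all tested genes called in either direction, 47.0% higher and 38.6% lower. A weakly counted gene passes the filter only through the group where it is high, so the share of calls among the 11 is a description and supports nothing. Their median log2 fold change was 4.76, or 3.78 with Mef2c and Myt1l set at their lower bounds. For all tested genes it was 0.37, with no gene set at a bound. The filter selects the medians of listed genes and partners in the same way, so they too are only a description. Of the 23 partners, 12 were tested and 11 were called higher, with a median of 6.40, or 5.02 with 4 genes at their bounds. Against a minimum change of 2-fold, 9 listed genes and 10 partners were called higher, against a background of 67.4%, of which 38.0% was higher and 29.4% lower. When every gene with a count was tested, 28 of the 37 listed genes that had any count were called, 26 higher and 2 lower, and 18 of 23 partners were called higher. The background in that fit was 40.8%, split into 21.2% higher and 19.6% lower.

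Among the regional patterning genes, Pax6, Nr2f1 and Meis2 were tested and rose. Pax6, a paired-box factor of dorsal forebrain progenitors (ENSMUSG00000027168.22, chromosome 2, 105499245 to 105527709, plus strand, GRCm39), was assigned 8, 8 and 4 counts across the ESC libraries, against 61, 41 and 64 across the neuron libraries. The groups did not overlap, and no opposite-strand gene shared its exons. Its level was 5.79 ± 2.07 CPM in ESC and 81.1 ± 20.8 CPM in neurons (SD, n = 3), a log2 fold change of 3.78 with an SE of 0.32 (adjusted p 1.7e-13 by edgeR).

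Nr2f1 encodes the orphan nuclear receptor COUP-TFI, which sets area identity in the cortex (ENSMUSG00000069171.15, chromosome 13, 78337092 to 78347876, minus strand). It was assigned 0, 0 and 1 counts across the ESC libraries, against 49, 30 and 29 across the neuron libraries. The pooled ratio was 182-fold, with an exact 95% counting interval of 31.9 to 7242 (edgeR adjusted p 5.6e-14). Its partner A830082K12Rik (ENSMUSG00000087143.11, 78346136 to 78427510, plus strand) starts within Nr2f1 and runs away from it, head to head. It shared 123 bases, or 1.38% of its own 8919 exonic bases. The partner was assigned 5, 3 and 0 counts across the ESC libraries, against 536, 416 and 406 across the neuron libraries. Its level rose from 2.22 ± 1.97 to 656.7 ± 40.1 CPM, the highest among the 62 genes (log2 fold change 8.07 with an SE of 0.25, adjusted p 3.7e-27 by edgeR), which was 7.44 without ESC replicate 3. In neurons 7.37% of the counts of the pair lay on Nr2f1 (exact binomial 95% interval 6.08% to 8.83%).

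Meis2, a homeobox cofactor of patterning and of the ganglionic eminences, had a pooled ratio of 55.5 (interval 9.29 to 2258, edgeR adjusted p 5.3e-09), with 1 count in all ESC libraries. The remaining patterning genes were below the filter. Lhx2, a LIM homeobox selector of cortical identity, was at 0 in ESC and had 14, 2 and 1 counts in neuron replicates 1 to 3, values chosen for printing after they were seen. Emx1 and Emx2, homeobox genes of the dorsal forebrain, stood at 4.24 ± 1.99 and 4.87 ± 1.74 CPM in neurons and 1.70 ± 0.71 and 0.753 ± 1.304 in ESC, and neither was called in the fit without a filter (edgeR adjusted p 0.30 and 0.052). Emx2os, which shares 264 bases with Emx2 head to head, was at 0 in ESC and at 4.95 ± 5.89 CPM in neurons. Sox1, an early neural plate factor, was at 0 in ESC and at 10.5 ± 6.27 CPM in neurons, at least 3.99-fold higher. Nr2f2, the paralogue of Nr2f1, had 2 counts summed over the ESC and 2 over the neuron libraries. Otx2, a homeobox gene of the anterior neural plate that is also active in pluripotent cells, had 3.52 ± 1.15 CPM in ESC and 0 in neurons. Its edgeR adjusted p was 0.0082 in the fit without a filter. The Otx2 mean in ESC was under the level of 3 counts in a neuron library (3.92 to 4.81 CPM), so no fold is given. The related Otx1 ran the other way, at 0.64 ± 1.12 CPM in ESC and 6.85 ± 6.503 in neurons (edgeR adjusted p 0.0017 without a filter).

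Six3, a homeobox gene of the rostral forebrain and eye, and Six3os1, its head-to-head noncoding neighbour with 106 shared bases, were both at 0 in ESC. In neurons they had 5.86 ± 0.60 and 2.87 ± 1.25 CPM. Within Six3os1 lay 6 genes of 74 to 323 bases on the Six3 strand, each wholly covered by Six3os1 exons. They had 65 counts together in neurons and 0 in ESC, against 6 on Six3os1. The most counted of them, ENSMUSG00002076352.1, had 13.7 ± 2.16 CPM in neurons and was at least 5.23-fold higher (edgeR adjusted p 4.2e-09). Zic1, a zinc finger gene of the dorsal neural tube, was at 0 in ESC and at 3.70 ± 2.54 CPM in neurons. Its divergent neighbour Zic4, sharing 60 bases, had 29.1 ± 14.8 CPM in neurons and 1 count in ESC, a pooled ratio of 104 (interval 18.0 to 4185, edgeR adjusted p 6.8e-10).

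At the Notch target Hes5 nearly all counts of the pair were assigned to the partner, a split that would turn around with strand read in the opposite sense. Hes5, a basic helix-loop-helix repressor that keeps neural progenitors undifferentiated (ENSMUSG00000048001.8, chromosome 4, 155045380 to 155046828, plus strand), was assigned 0, 1 and 0 counts across the ESC libraries, against 5, 3 and 5 across the neuron libraries. Gm20421 (ENSMUSG00000092483.2, 155045227 to 155046135, minus strand) covers the start of Hes5 from the other strand and shares 433 of its 672 exonic bases with it. Gm20421 was at 0 in ESC and was assigned 256, 303 and 252 counts across the neuron libraries. It rose to 396.5 ± 59.1 CPM and was at least 151-fold higher (edgeR adjusted p 9.3e-25). In neurons 1.58% of the counts of the pair lay on Hes5 (interval 0.84% to 2.68%). Hes1, the other Notch effector listed, has no partner and went the other way, at 2.48 ± 1.41 CPM in ESC and 0 in neurons (edgeR adjusted p 0.028 without a filter). Both mean Hes1 levels were at or under the level of 3 counts, so no fold is given.

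Id4, which encodes an inhibitor that binds basic helix-loop-helix factors, differed from Hes5 in that its partner was abundant in both groups. Id4 itself (chromosome 13, 48414704 to 48419502, plus strand) was assigned 4, 0 and 2 counts across the ESC libraries, against 14, 6 and 5 across the neuron libraries. Gm49291, head to head with 171 shared bases, was assigned 155, 98 and 133 counts across the ESC libraries, against 157, 69 and 135 across the neuron libraries. The levels were 110.6 ± 13.8 and 174.7 ± 62.5 CPM, and the groups overlapped. By edgeR the difference was 0.66 on the log2 scale (SE 0.20, adjusted p 0.0041) and did not pass 2-fold. The call was lost with limma-voom (adjusted p 0.065), without ESC replicate 2 (edgeR adjusted p 0.059) and without neuron replicate 3 (edgeR adjusted p 0.055). A second partner, A330033J07Rik, had at most 5 counts in any library. Summed over the locus the groups did not overlap, at 111 ± 13.8 and 191 ± 61.9 CPM, a difference of 0.78 on the log2 scale (SE 0.19, edgeR adjusted p 0.00062) that did not pass 2-fold.

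**Figure D2:**
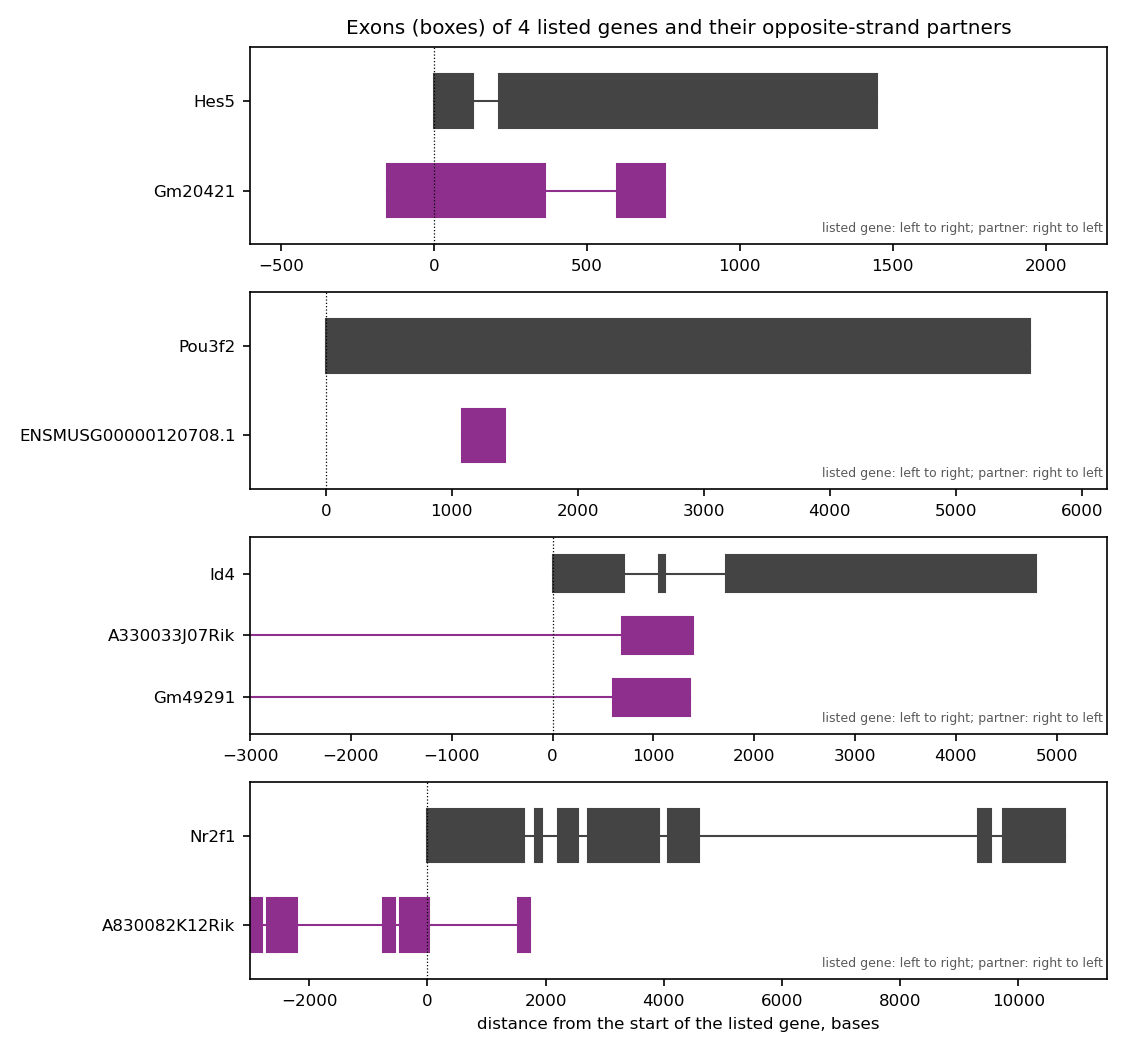
Exons as boxes and introns as lines for Hes5, Pou3f2, Id4 and Nr2f1 (grey) and their opposite-strand partners (purple), drawn to scale against the distance in bases from the start of the listed gene. Gm20421 and the partners of Id4 and Nr2f1 cross the first part of the listed gene, while the partner of Pou3f2 lies within its exon.

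The sequences below are the start regions of Hes5, Bcl11a, Pou3f2 and Id4, shown because these loci were among the most counted in neurons. Among them only the Hes5 partner has an exon that reaches the listed gene's start in the count table, while those at Bcl11a, Pou3f2 and Id4 overlap further inside. These are the 4 loci of several genes with the highest neuron levels among those with 1 start in the RefSeq promoter table. They run from 250 bases before to 50 after the start on the gene's own strand, in GRCm38.p6 coordinates, which differ from those of the count table. Of the 39 listed genes, 33 had an entry. Capitals mark matches on either strand to CANNTG, the E-box bound by basic helix-loop-helix factors, and to TGGGAA, the core bound by the Notch effector RBPJ. These matches are a description of the letters, not of binding.
Hes5 (chr4:154960673-154960972, plus strand): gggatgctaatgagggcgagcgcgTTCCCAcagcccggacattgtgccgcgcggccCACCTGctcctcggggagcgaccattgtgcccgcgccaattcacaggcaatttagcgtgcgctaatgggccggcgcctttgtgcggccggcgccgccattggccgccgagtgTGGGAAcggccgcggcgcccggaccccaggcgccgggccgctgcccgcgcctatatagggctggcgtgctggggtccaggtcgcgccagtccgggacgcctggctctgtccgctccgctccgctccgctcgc
Bcl11a (chr11:24080445-24080744, plus strand): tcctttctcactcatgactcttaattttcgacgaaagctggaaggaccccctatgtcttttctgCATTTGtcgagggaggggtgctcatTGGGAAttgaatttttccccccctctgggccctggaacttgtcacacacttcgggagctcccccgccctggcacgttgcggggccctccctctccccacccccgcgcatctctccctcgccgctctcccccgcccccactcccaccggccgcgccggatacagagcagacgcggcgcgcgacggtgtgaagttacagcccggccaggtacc
Pou3f2 (chr4:22488317-22488616, minus strand): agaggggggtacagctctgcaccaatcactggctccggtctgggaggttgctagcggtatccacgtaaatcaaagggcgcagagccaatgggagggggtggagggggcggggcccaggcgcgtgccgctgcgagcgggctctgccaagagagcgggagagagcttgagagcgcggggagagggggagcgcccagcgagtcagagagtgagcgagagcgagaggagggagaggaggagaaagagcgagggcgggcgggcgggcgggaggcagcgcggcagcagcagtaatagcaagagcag
Id4 (chr13:48260866-48261165, plus strand): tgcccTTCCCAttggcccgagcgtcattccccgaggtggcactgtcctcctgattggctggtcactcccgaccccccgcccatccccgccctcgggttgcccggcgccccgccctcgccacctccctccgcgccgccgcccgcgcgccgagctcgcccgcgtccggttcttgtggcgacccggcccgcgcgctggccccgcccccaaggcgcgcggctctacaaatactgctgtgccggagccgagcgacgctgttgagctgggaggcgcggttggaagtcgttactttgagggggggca
Hes5 held 2 RBPJ cores, beginning 226 and 82 bases before the start, and 1 E-box. Bcl11a held 1 of each, Id4 held 1 RBPJ core and Pou3f2 held neither. Of all 32851 entries in the table, 25.6% held TGGGAA and 72.3% held CANNTG. The Hes5, Id4, Pou3f2 and Bcl11a windows held 41, 39, 24 and 23 CpG dinucleotides, against a median of 7 over all entries.

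In the proneural relay the early factors had few counts in either group, and Neurod2 rose. Neurog2, the proneural factor of cortical progenitors, had 1.82 ± 1.08 CPM in ESC and 1.37 ± 1.31 in neurons, with overlapping groups. Neurod1 had at most 1 count in any library. Eomes, the T-box factor of intermediate progenitors, stood at 4.03 ± 1.29 CPM in ESC and 1.47 ± 0.15 in neurons, with groups that did not overlap and no call in the fit without a filter (edgeR adjusted p 0.18). Its tail-to-tail partner Gm33460, sharing 118 bases, had 10.9 ± 2.46 CPM in ESC and 12.04 ± 8.16 in neurons, overlapped between the groups and did not pass the test (log2 fold change 0.19 with an SE of 0.43, adjusted p 0.68 by edgeR). By contrast Neurod2, a later factor of postmitotic excitatory neurons, rose to 11.1 ± 0.66 CPM from 3 counts over the ESC libraries, a pooled ratio of 12.9 (interval 3.90 to 67.1, edgeR adjusted p 4.7e-06). All 3 of these counts lay in ESC replicate 2, and Neurod2 did not pass the filter when any ESC library was left out. Neurod6, another factor of postmitotic cortical neurons, was at 0 in ESC and at 9.27 ± 1.89 CPM in neurons, at least 3.53-fold higher. Tbr1, the T-box factor of deep-layer neurons, was at 0 in ESC and at 7.75 ± 3.71 CPM in neurons, at least 2.95-fold higher. Neurod6 and Tbr1 did not pass the filter, and their edgeR adjusted p without it was 2.3e-06 and 1.7e-05.

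Among the layer identity genes with a partner, most counts were assigned to the partner, Pou3f1 excepted, with the same limit on strand. Bcl11a, a zinc finger gene of cortical projection neurons (ENSMUSG00000000861.16, chromosome 11, 24028056 to 24124123, plus strand), was assigned 1, 0 and 2 counts across the ESC libraries, against 4, 1 and 4 across the neuron libraries. 4930538E20Rik (ENSMUSG00000085516.2, 24110528 to 24122824, minus strand) lies inside it and shares 316 of its 927 exonic bases. This partner was assigned 17, 18 and 10 counts across the ESC libraries, against 203, 207 and 219 across the neuron libraries, rising from 13.1 ± 4.19 to 308.1 ± 43.0 CPM (log2 fold change 4.55 with an SE of 0.21, adjusted p 2.05e-21 by edgeR). The share on Bcl11a was 1.41% in neurons (interval 0.65% to 2.66%).

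Pou3f2, the POU factor of upper-layer neurons also known as Brn2 (ENSMUSG00000095139.3, chromosome 4, 22482780 to 22488366, minus strand), was at 0 in ESC and had 8, 5 and 1 counts in neurons. ENSMUSG00000120708.1 is a gene of 339 bases on the plus strand (22486948 to 22487286) that lies wholly within the exon of Pou3f2. It was assigned 2, 1 and 0 counts across the ESC libraries, against 183, 122 and 127 across the neuron libraries. Its level in neurons was 208.1 ± 28.8 CPM and its pooled ratio 242 (interval 82.3 to 1179, edgeR adjusted p 1.4e-21). Pou3f3, the close relative of Pou3f2, was at 0 in ESC and at 15.4 ± 8.58 CPM in neurons, at least 5.88-fold higher. Its divergent noncoding neighbour Pantr1 rose from 4.60 ± 1.65 to 55.3 ± 7.94 CPM (log2 fold change 3.55 with an SE of 0.35, adjusted p 7.8e-12 by edgeR). Pou3f1 was the exception among these 3 POU genes. It rose from 2.93 ± 0.68 to 16.8 ± 3.51 CPM (log2 fold change 2.50 with an SE of 0.46, adjusted p 5.0e-06 by edgeR), while Gm2164, which shares 330 of its 424 bases with it, had at most 1 count in any library.

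Sox5, a SoxD factor that times deep-layer neuron birth (ENSMUSG00000041540.17, chromosome 6, 143774151 to 144727703, minus strand), was at 0 in ESC and had 2, 2 and 3 counts in neurons. Sox5os1 (143967634 to 143969504, plus strand), which shares 1330 of its 1585 bases with Sox5, was at 0 in ESC and had 92, 84 and 69 counts in neurons. It was at least 45.2-fold higher, at 118.6 ± 7.40 CPM (edgeR adjusted p 1.4e-18). Cux1, a cut-homeobox gene of upper layers that is also widely expressed, was assigned 4, 0 and 1 counts across the ESC libraries, against 2, 2 and 0 across the neuron libraries. Its internal partner Gm16599, sharing 394 of 1182 bases, was assigned 48, 46 and 25 counts across the ESC libraries, against 90, 59 and 67 across the neuron libraries, a rise from 34.4 ± 11.04 to 104.3 ± 15.01 CPM (log2 fold change 1.60 with an SE of 0.23, adjusted p 4.9e-08 by edgeR). Cux2 has no partner and rose less, from 12.02 ± 4.28 to 26.9 ± 12.5 CPM, with overlapping groups (log2 fold change 1.17 with an SE of 0.36, adjusted p 0.0034 by edgeR). Without neuron replicate 1 the Cux2 call was lost (edgeR adjusted p 0.056). Bcl11b and Fezf2, which specify subcortically projecting neurons, were at 0 in ESC and had 1 to 5 counts per neuron library.

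**Figure D3:**
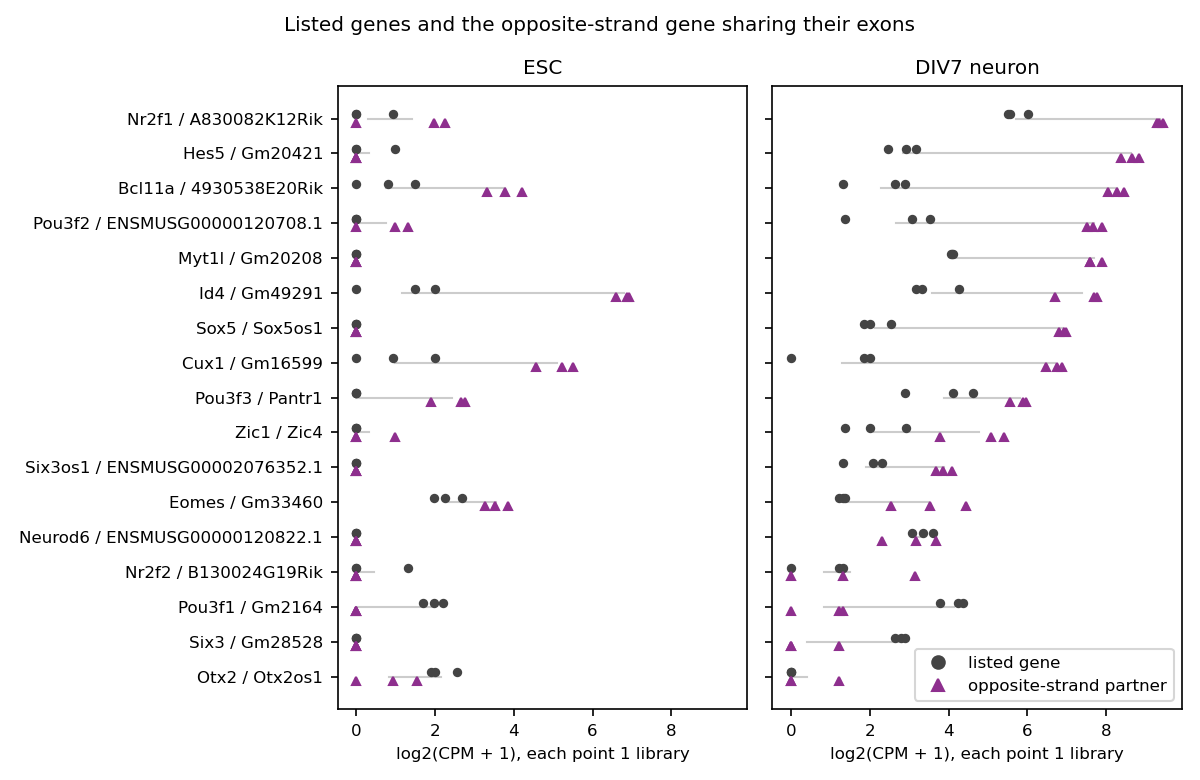
Listed genes (grey circles) and the most counted opposite-strand gene sharing their exons (purple triangles), as log2(CPM + 1) per library in ESC (left) and DIV7 neurons (right), with a line between the means of the log values. In neurons the triangles lie far to the right for Nr2f1, Hes5, Bcl11a, Pou3f2, Myt1l, Id4, Sox5 and Cux1, and to the left for Pou3f1 and Six3.

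The postmitotic differentiation genes had the largest share tested on their own rows, at 5 of 6, and all 5 were called higher. Sox4, Sox11, Mef2c and Tcf4 have no partner. With strand read in the opposite sense, their rows would hold no reads of their own strand. Sox4, a SoxC factor with 1 exon and no partner (ENSMUSG00000076431.5, chromosome 13, 29132902 to 29137696, minus strand), was assigned 1, 1 and 9 counts across the ESC libraries, against 77, 45 and 63 across the neuron libraries. Its level rose from 3.29 ± 4.21 to 89.5 ± 19.4 CPM (log2 fold change 4.76 with an SE of 0.40, adjusted p 7.4e-12 by edgeR). Of the 11 ESC counts 9 lay in replicate 3, and the log2 fold change was 6.41 without ESC replicate 3 and 4.14 without ESC replicate 1. Sox11, its SoxC relative, reached 23.5 ± 2.41 CPM, a pooled ratio of 80.8 over 1 count in ESC (interval 13.8 to 3255, edgeR adjusted p 3.2e-10). Mef2c, a MADS-box factor of maturing excitatory neurons, was at 0 in ESC and at 57.4 ± 8.32 CPM in neurons, at least 21.9-fold higher (edgeR adjusted p 9.9e-15). Myt1l, a zinc finger repressor of non-neuronal genes (ENSMUSG00000061911.16, chromosome 12, 29578383 to 29973212, plus strand), was at 0 in ESC and had 12, 11 and 10 counts in neurons, at least 6.11-fold higher (edgeR adjusted p 1.1e-09). Gm20208 (29576905 to 29584890, minus strand), head to head with 661 of 1754 bases shared, was at 0 in ESC and had 147, 158 and 119 counts in neurons. It reached 206.0 ± 25.5 CPM and was at least 78.5-fold higher (edgeR adjusted p 2.05e-21). Tcf4, a basic helix-loop-helix partner of the proneural factors, changed least, from 7.75 ± 5.402 to 16.9 ± 5.57 CPM with overlapping groups (log2 fold change 1.11 with an SE of 0.43, adjusted p 0.018 by edgeR). The Tcf4 call was lost with DESeq2 (adjusted p 0.082) and without a filter (edgeR adjusted p 0.068). It was also lost without ESC replicate 1, without ESC replicate 2 and without neuron replicate 2 (edgeR adjusted p 0.071, 0.12 and 0.15).

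Compared per kilobase of exon, levels in neurons ranged widely among the 62 genes. On the RPKM scale (CPM per kilobase) the highest were ENSMUSG00000120708.1 at 614 ± 84.9 and Gm20421 at 590.0 ± 87.9, which did not differ beyond their spread. They were followed by 4930538E20Rik at 332 ± 46.4 and Gm20208 at 118 ± 14.5. All of these are partners, and with strand read in the opposite sense their counts over shared bases would be divided by the wrong length. Among the listed genes Sox4 led at 18.7 ± 4.06, then Nr2f1 at 10.2 ± 2.09 and Pax6 at 6.94 ± 1.78. The spreads of Nr2f1 and Pax6 overlapped, and the level of Hes5, next in order at 4.65 ± 1.31, did not stand apart from that of Pax6 by more than the sum of their SDs.

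Of the 39 listed genes, 19, or 48.7%, overlapped a gene on the other strand within exons, and 17 of these had a partner that is not itself listed. In neurons the partners held more counts than the listed gene at 14 of these 17, and the listed gene held more at Neurod6, Pou3f1 and Six3. In ESC the partners held more at 8 and the listed gene at 4, and 5 were equal. Partner counts were summed where a listed gene had several. The same share over all overlapping genes of the table was not computed, so this need not be particular to the listed genes. The arrangement was head to head for 11 partners, inside the listed gene for 11 and tail to tail for 1. Head-to-head partners summed to 1189, 1013 and 965 counts in neurons and 167, 111 and 138 in ESC. Partners inside a listed gene summed to 596, 491 and 501 in neurons and 67, 65 and 35 in ESC. Over the 17 sets together, the share of counts on the listed gene averaged 7.92% ± 1.62 over ESC and 6.38% ± 1.18 over neuron libraries (SD, n = 3). This share did not differ beyond its spread (exact two-sided permutation p = 0.2, where 3 against 3 samples cannot go below 0.1).

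Counts were then summed over each connected set of genes overlapping on opposite strands, called a locus here. Such a sum does not depend on which gene of the set a read was assigned to. It cannot recover reads that fell outside the exons annotated on the strand of counting. The 39 genes fell into 37 loci, of which 17 held several genes. The 20 loci of 1 gene hold the same counts as that gene and keep its dependence on strand. Of 22 loci that passed the filter, 21 were called higher in neurons and none lower. The background was 86.8% of 5562 tested loci, 48.0% called higher and 38.9% lower, and the filter applies here as above. The median log2 fold change was 5.02, or 4.41 with 5 loci at their bounds. For all tested loci it was 0.39, with no locus set at a bound, and these medians are likewise only a description. By role, 5 of 12 patterning loci were tested and called, 2 of 3 Notch and Id loci, and 7 of 9 layer loci. The proneural relay had 3 of 7 tested and 2 called, and the postmitotic group 5 of 6 tested and called. The summed Hes5 locus had 0.32 ± 0.55 CPM in ESC and 402 ± 62.6 in neurons, and the Nr2f1 locus 2.49 ± 1.47 and 714 ± 42.7. Eomes was the locus that did not pass, at 14.7 ± 3.44 and 13.5 ± 7.88 CPM (log2 fold change −0.08, 95% interval −0.89 to 0.73, edgeR adjusted p 0.86). That interval includes 0 and does not show that the levels were alike.

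**Figure D4:**
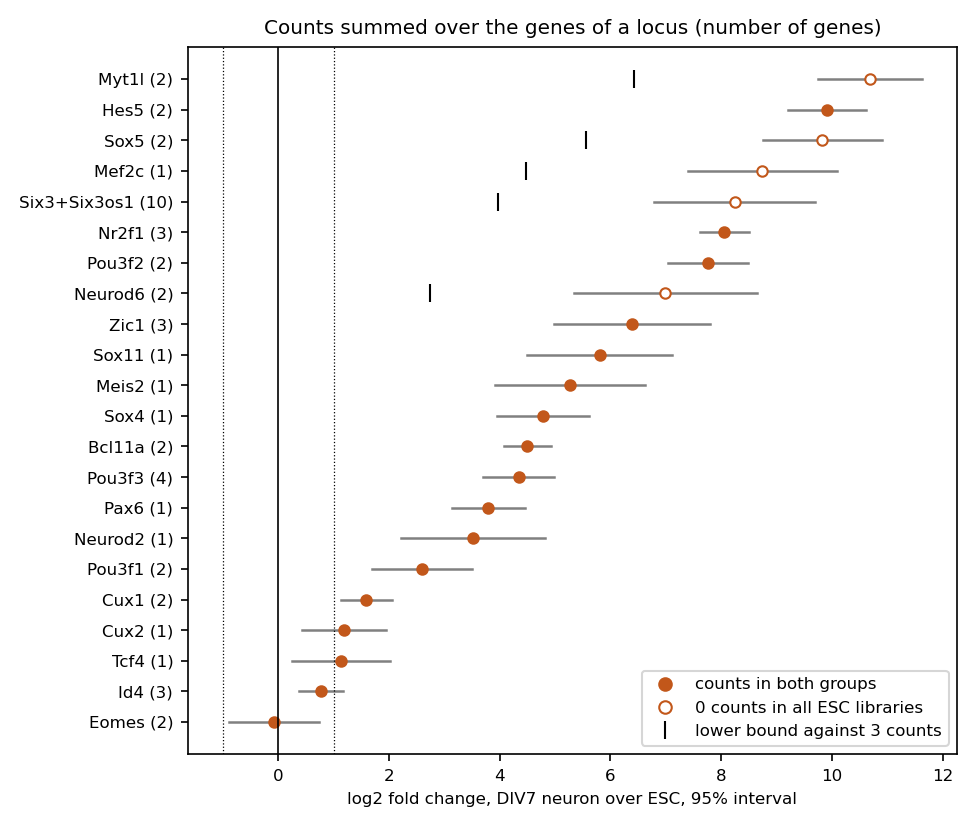
Log2 fold change of DIV7 neurons over ESC for the 22 tested loci, with 95% intervals and the number of genes summed in brackets. Open circles are loci at 0 in every ESC library, for which the black tick gives the lower bound against 3 counts per library, and dotted lines mark 2-fold. Myt1l and Hes5 have the highest fitted values, and Eomes lies near 0.

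A list of 56 other neural transcription factor genes put the listed genes in context. By gene, 16 were tested, of which 10 rose and 4 fell in neurons. Their median log2 fold change was 4.75, or 2.59 with 4 genes at their bounds. On locus sums 20 were tested, 15 called higher and 4 lower. The 4 genes lower in neurons were Sox2 (−4.04), the pluripotency and neural progenitor factor, Scrt2 (−3.05), Zic5 (−1.55) and Tcf7l2 (−0.95), given as log2 fold changes that each passed an edgeR adjusted p of 0.05. Under total counts 3 were lower on the gene table. No tested member of the 39 was called lower in the same fit, and whether the lists differ was not tested. Zic4 is on this list and is also the partner of Zic1.

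**Figure D5:**
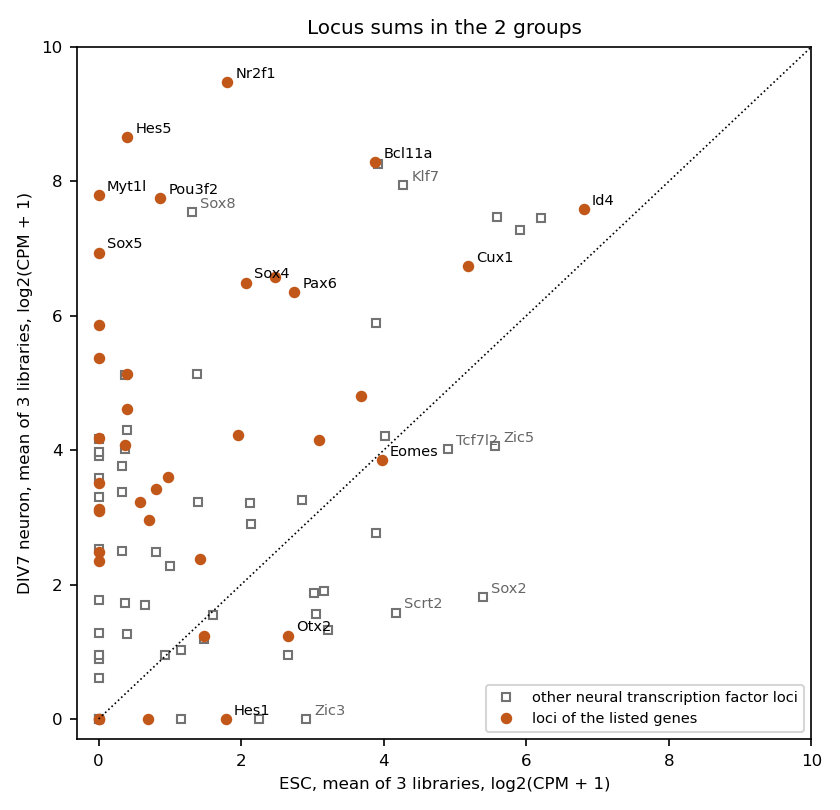
Mean level of each locus in ESC (horizontal) and DIV7 neurons (vertical), as log2(CPM + 1) of the mean of 3 libraries, for the loci of the listed genes (orange) and of other neural transcription factors (open squares). The dotted line marks equal levels. Nr2f1 and Hes5 lie highest, Id4 and Cux1 lie nearest the line among the abundant loci of the listed genes, and Sox2, Scrt2 and Zic5 lie below it.

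Scaling moved all genes together. Relative to trimmed-mean factors, total counts raised the log2 fold change of the table's tested genes by a median of 0.73 and upper-quartile factors by 0.21. The share of called genes that were higher in neurons went from 54.9% to 65.5% under total counts. Each of the 11 listed genes and 11 partners called higher was also higher and called under these scalings and under DESeq2 size factors. The Eomes locus turned from −0.08 to 0.62 under total counts and 0.17 under upper-quartile factors, without a call. Gm33460 was called higher under total counts alone (log2 fold change 0.92, edgeR adjusted p 0.049).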

How the data were processed

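The authors deposited 1 table of raw counts per gene with exon positions, strand and exonic length. Per the file headers reads were aligned with STAR, and the submitters' processing notes name cutadapt, STAR, RSEM and the build GRCm39 (mm39). The layout is that of featureCounts. The counting tool, its strand setting and all versions are not given in the sources used here. Per the labels, polyadenylated RNA was enriched by oligo-dT priming and read as paired ends. Symbols came from a GENCODE M21 table by identifier and were found for 91.3% of genes. The 65 symbols on several genes were replaced by identifiers.

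Counts were filtered with filterByExpr (minimum count 10), scaled by TMM and compared with edgeR's quasi-likelihood test (robust) on all 6 libraries, without covariates, over all genes and separately over locus sums. Benjamini-Hochberg adjusted p-values under 0.05 were called, and glmTreat tested a 2-fold minimum. The SE is the log2 fold change divided by the square root of F, which is approximate. A bound is the mean CPM over the mean CPM of 3 counts per library. A pooled ratio uses summed counts with an exact 95% interval, which covers counting error only. Overlaps were computed from the table's coordinates. Named genes were the listed genes and their partners, with counts per library for genes reaching 50 counts in some library and for their listed genes. The members, lists and roles were chosen with earlier results of these data known.

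Chi-square per degree of freedom was 1.31 to 4.16 between replicates, so no library was a copy of another. The fits and the overlap step were tested on simulated data. Python 3.11.15 with scipy 1.17.1 was used, and DESeq2 1.42.0, limma 3.58.1 and edgeR 4.0.16 under R 4.3.3. Alternatives were other scalings, filters and tools, the replicate block, a 100-base overlap and leaving out each library.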

Additional observations from a re-analysis of the deposited data

How the results depend on the processing

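With no filter on low counts, 28 listed genes (26 higher) and 18 partners were called, against 11762 of all 28820 tested genes. Past 2-fold 44 of the 60 tested listed genes and partners were called (42 higher). No background share was computed for that test, so this number shows nothing particular to these genes. Of the other neural transcription factors 34 were called on the gene table (21 higher, 13 lower). On locus sums 34 were called (23 higher, 11 lower), against 9461 of 24242 tested loci. With a mean of at least 10 counts, 6 of 6 tested listed genes and 7 of 11 tested other factors were called. The background there was 4979 of 5971 tested genes. The filters changed how many genes were tested. Leaving out each library in turn gave 10 to 13 listed genes, 10 to 11 partners and 19 to 22 loci, all higher in neurons. In those fits 5430 to 7353 of 6418 to 9200 tested genes and 4298 to 5809 of 5013 to 7132 tested loci were called. The share on the listed gene was lower in neurons by 0.91 to 2.46 percentage points. With the replicate block 11 listed genes, 11 partners and 21 loci were called, against 6088 of 7150 genes and 4809 of 5562 loci. Same-numbered samples correlated at 0.0189, 0.0039 and −0.0223 in their deviations from the group means, so replicate numbers carried no pairing, and the block moved none of these counts. Gm33460 reversed to −0.50 without neuron replicate 1 (edgeR adjusted p 0.42), within a range of −0.50 to 0.50 over left-out neuron libraries. The Eomes locus reversed to 0.62 under total counts, 0.17 under the upper quartile, 0.24 with a mean of at least 10 counts and 0.21 without neuron replicate 3, with a range of −0.67 to 0.21 over left-out neuron libraries, none past the threshold. Neurod2, Gm33460 and the Eomes locus did not pass the filter without any 1 ESC library and gave no value there. The cause was not tested. Over 45 genes and loci, 586 of 607 alternative values kept their direction and their side of the threshold, 15 lost and 1 gained a call, and 5 reversed. At this depth 11 of 39 listed genes and 22 of 37 loci passed the filter.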

Other observations

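The neuron library that held the highest level varied among the listed genes. Of 23 listed genes with at least 10 counts over the neuron libraries, replicate 1 was highest in 11, replicate 2 in 4 and replicate 3 in 8, as shares 47.8%, 17.4% and 34.8%. Over the 9757 genes of the table with as many counts the shares were 35.7%, 31.9% and 32.4%. Whether the shares of so few listed genes differ from these was not tested. Replicate 1 was highest for Otx1, a homeobox gene of deep-layer neurons, with 11, 2 and 2 counts, and for Emx2os with 9, 1 and 1. Replicate 3 was highest for Sox1, with 6, 4 and 11 counts, and for Pax6, with 61, 41 and 64. All of these were named after their values were seen. Replicate 1 is also the neuron library whose name lacks the word empty, and the part of that difference in these values was not tested.

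Across the 33 listed genes with an entry in the RefSeq promoter table (GRCm38.p6, 46 windows of 300 bases), the median number of CpG dinucleotides was 15, from 1 to 48, against 7 over all 32851 windows. The POU octamer ATGCAAAT, searched on both strands, was found in windows of Myt1l, Neurog1 and Sox1, and in 1.74% of all windows. The CCAAT box was found in windows of 23 of the 33 genes and in 37.4% of all windows. Several listed genes have more than 1 window, so the numbers of genes and of windows are not comparable, and no test was made.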
